A study of Homo sapiens with 4 samples.

Results

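The 6 genes described here encode secreted factors that human cells make under stress, namely STC2, GDF15, INHBE, ADM2, STC1 and FGF21. All 6 were found by symbol in a table of 32955 genes. They were chosen because of what they encode and because earlier results of these same data were known, and they were thus selected on measured values, the RPKM in the 4 libraries compared between the miR-217 mimic and mimic NC and between libraries numbered 2 and 1. The differences between the numbers are therefore given as a description, with no test. RPKM counts reads relative to exon length and to all reads on genes, so that levels of different genes can be compared per length.

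The samples were MDA-MB-231 cells, an established human line of triple-negative breast cancer (BC), grown in medium with serum. Both groups were transfected, 1 with mimic NC, a negative control RNA, and the other with a mimic of the microRNA miR-217, that is, synthetic RNA that acts as the mature microRNA. Each group had 2 libraries, numbered 1 and 2, and the question of the study was which mRNAs change when miR-217 is raised. The labels do not say whether a number marks a culture, a transfection or a day, so p-values measure only the spread between these libraries, and 1 cell line stands for BC.

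Cells that run short of amino acids, fold proteins badly in the endoplasmic reticulum or face other forms of stress halt most protein synthesis and make more of the transcription factor ATF4, which raises genes for amino acid supply together with several secreted hormones. GDF15 is a distant member of the TGF-beta family that acts on the brainstem to lower appetite, FGF21 is a metabolic hormone known best from the liver, INHBE encodes the beta E chain of activins, and ADM2 (intermedin) is a peptide of the calcitonin family. STC1 and STC2 are stanniocalcins, glycoprotein hormones that inhibit pappalysins, the proteases that free insulin-like growth factors from their binding proteins. STC2 is a known target of ATF4, and STC1 is known as a gene raised in low oxygen.

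The recovered reads on genes ranged from 32635814 to 57933183 per library, and in both groups the library numbered 2 was the shallower one and had the larger mitochondrial share (3.97% and 4.78%, against 3.56% and 3.58%). Among values of 1 to 19 reads, 67.6% to 69.6% were even, as when both mates of a pair are counted, though the cause was not tested. Counting intervals below were therefore set on counts divided by 2, and they cover counting error only, not the spread between cultures. Of 6 markers of this line, VIM, CD44, EGFR, AXL and CAV1 lay between 5.17 and 36.9 RPKM, while SPARC reached only 0.292 RPKM, against the list. ESR1, the estrogen receptor, was at most 0.0756 RPKM, GATA3 at most 0.104 RPKM and CDH1 at most 0.433 RPKM, and PGR was not listed in the table. The other 2 genes of this list of 6 markers thought to be low were not near 0, with ERBB2 at 2.27 to 3.23 RPKM and EPCAM at 3.90 to 7.41 RPKM. Of 6 markers of other cell types, ALB and ADIPOQ were not listed, PTPRC lay between 0.351 and 1.25 RPKM and PECAM1 at or below 0.138 RPKM. COL1A1 and COL3A1 were lower in the libraries numbered 2 (0.419 to 0.506 RPKM) than in those numbered 1 (1.02 to 1.24 RPKM). The summed level of the list was 2.76 and 2.75 RPKM in the libraries numbered 1 and 1.33 and 2.31 RPKM in those numbered 2, and the part of depth and of these markers in the results below was not tested.

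The sources used here give neither the arm nor the sequence of the mimic. The RefSeq mature sequence of miR-217-5p (GRCh38.p14, chr2:55983020-55983042, minus strand) is shown because its seed was searched in the members, and the capitals mark the seed, bases 2 to 8.

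miR-217-5p: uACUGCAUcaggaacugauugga

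The match to this seed, ATGCAGT, was searched in the longest 3′ UTR of each gene in GENCODE 29. None of the 6 members held it, in windows of 113 bases (FGF21) to 3537 bases (ADM2), against 12.5% of 19120 genes. The shorter match to bases 2 to 7, TGCAGT, occurred 1 time in STC2, 1 time in INHBE and 2 times in ADM2, and 42.2% of all genes held at least 1 copy. These letters describe the sequence and say nothing of binding.

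Promoters are shown because 4 of the members, STC2, GDF15, ADM2 and INHBE, were all higher in the libraries numbered 2, as described below. FGF21 was not among these 4. RefSeq promoter windows, 250 bases before to 50 bases after the start, were at hand for STC2, GDF15, ADM2 and FGF21, and not for INHBE. The start is that of the promoter entry, which for STC2 and GDF15 lies inside the gene span given below and not at its edge. The C/EBP-ATF response element, through which ATF4 is known to act with C/EBP partners, was searched as TGATGNAAN on both strands and occurred in 3.63% of 34796 windows. FGF21 held it, 55 to 47 bases before the start (GRCh38.p14, chr19:48755469-48755477, on the reverse strand of the gene), and STC2, GDF15 and ADM2 did not hold it in this window. Among 13 other ATF4 target genes with a window, ASNS, CHAC1 and SLC3A2 held it. In the FGF21 stretch (chr19:48755444-48755502, plus strand) capitals mark this element. In the GDF15 stretch (chr19:18386104-18386157, plus strand) they mark a TATA box (TATAAA, in 11.6% of windows), 29 to 24 bases before the start. In the STC2 stretch (chr5:173328485-173328539, minus strand) they mark a CCAAT box (CCAAT, here on the reverse strand, in 34.6% of windows), 100 to 96 bases before the start.

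FGF21: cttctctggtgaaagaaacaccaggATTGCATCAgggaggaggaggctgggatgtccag
GDF15: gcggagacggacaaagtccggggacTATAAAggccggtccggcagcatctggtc
STC2: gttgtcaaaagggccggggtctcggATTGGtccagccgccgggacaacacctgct

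The other motifs searched in these windows were the cAMP response element TGACGTCA (1.84% of windows), the core of the hypoxia element ACGTG (21.4%) and the endoplasmic reticulum stress element (0.0776%). None of the 4 members with a window held any of them. GDF15 and ADM2 held GC boxes (GGGCGG, in 44.9% of windows).

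STC2 had the highest level of the members in every library and, on the log2(RPKM + 1) scale, the largest difference between the libraries numbered 1 and 2. It measured 6.11 RPKM in mimic NC library 1 and 52.4 RPKM in mimic NC library 2, and 5.95 RPKM in miR-217 mimic library 1 and 52.3 RPKM in miR-217 mimic library 2, from 1944 to 15218 reads. Both libraries numbered 2 were thus high and both numbered 1 low, whatever had been transfected. The RPKM ratio of number 2 over number 1 was 8.58 (95% counting interval 8.05 to 9.15) in mimic NC and 8.80 (8.22 to 9.44) in miR-217 mimic. On the log2(RPKM + 1) scale the differences were 2.91 and 2.94, rank 1 of 13871 genes in both groups, whereas the median difference over all these genes was -0.03 in each. The gene (GRCh38, chr5:173314713-173329503, minus strand, 6128 exon bases) shared no exon bases with another listed gene.

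The mean STC2 level was 29.3 ± 32.7 RPKM (SD, n = 2) in mimic NC and 29.1 ± 32.8 RPKM (SD, n = 2) in miR-217 mimic, and the groups overlapped completely. Within number 1 the ratio of miR-217 mimic over mimic NC was 0.973 (0.891 to 1.06), and within number 2 it was 0.998 (0.964 to 1.03). The fitted log2 fold change was -0.02 with a standard error of 1.34 (limma, Benjamini-Hochberg adjusted p = 1.00). This fit has no term for the replicate number, so its standard error includes the difference between the numbers. With such a term the standard error was 0.066 (limma, Benjamini-Hochberg adjusted p = 0.938). In bulk RNA a change in the number of cells that express a gene and a change in the RNA of each cell cannot be told apart.

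GDF15 was second in every library. Its level was 2.38 and 5.29 RPKM in mimic NC libraries 1 and 2, and 2.80 and 6.005 RPKM in miR-217 mimic libraries 1 and 2, from 288 to 523 reads. The order of the libraries by number was that of STC2, but the ratios were smaller, 2.22 (1.80 to 2.74) in mimic NC and 2.14 (1.73 to 2.65) in miR-217 mimic, and the log2(RPKM + 1) differences of 0.90 and 0.88 ranked 114 and 198 of 13871 genes. The ratio of STC2 to GDF15, both per length, was 2.57 and 2.12 in the libraries numbered 1 and 9.91 and 8.71 in those numbered 2. The gene lies at GRCh38 chr19:18374731-18389176 on the plus strand, and the microRNA gene MIR3189 inside its span shares none of its 2087 exon bases.

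GDF15 was slightly higher with miR-217 mimic within both numbers, with ratios of 1.18 (0.932 to 1.49) and 1.14 (0.940 to 1.37), and both counting intervals included 1. The group means were 3.84 ± 2.06 RPKM in mimic NC and 4.40 ± 2.26 RPKM in miR-217 mimic (SD, n = 2 each). The fitted log2 fold change of 0.16 with a standard error of 0.42 did not pass the test (limma, Benjamini-Hochberg adjusted p = 1.00). This fit has no term for the replicate number, so its standard error includes the difference between the numbers. With such a term the standard error was 0.077, and GDF15 did not pass either (limma, Benjamini-Hochberg adjusted p = 0.634).

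**Figure D1:**
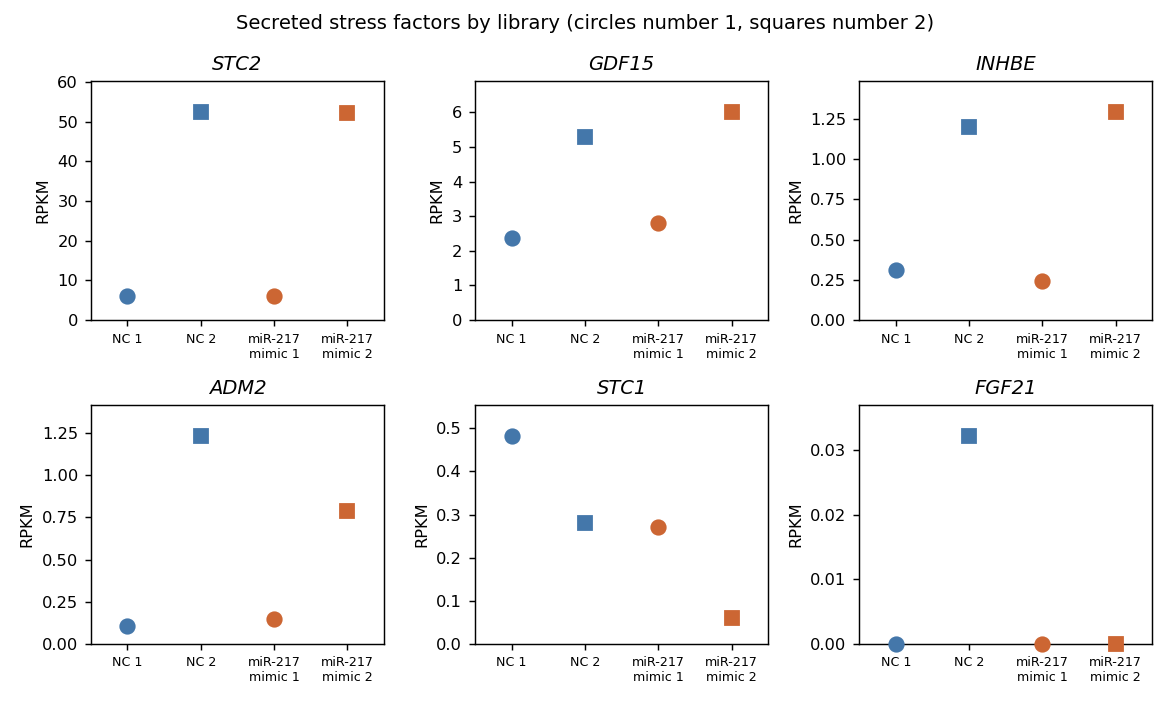
RPKM of each of the 6 members (1 panel each, own vertical axis starting at 0) in mimic NC and miR-217 mimic libraries 1 (circles) and 2 (squares). STC2 lies near 6 RPKM in both libraries numbered 1 and near 52 RPKM in both numbered 2, while STC1 is lowest in miR-217 mimic library 2.

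INHBE, which lies on GRCh38 chr12:57452323-57459280 (plus strand), was a low gene with a clear order of libraries. It measured 0.309 and 1.20 RPKM in mimic NC libraries 1 and 2, and 0.242 and 1.29 RPKM in miR-217 mimic libraries 1 and 2, from 39 to 171 reads. Both libraries numbered 2 were again high. The ratio of number 2 over number 1 was 3.87 (2.47 to 6.18) in mimic NC and 5.32 (3.20 to 9.59) in miR-217 mimic. Between the groups, miR-217 mimic stood at 0.784 (0.402 to 1.43) of mimic NC within number 1 and at 1.08 (0.764 to 1.51) within number 2, opposite directions with intervals that both included 1.

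ADM2, at GRCh38 chr22:50481556-50486440 (plus strand), had the largest ratio between the numbers of all genes with at least 50 reads on average in mimic NC, rank 1 of 15424, and rank 8 in miR-217 mimic. It was chosen with this difference in view and reached 50 reads on average through the libraries numbered 2, where it is higher. Nothing is thus read from these ranks, and the wide counting intervals given next do not resolve them. Its level was 0.105 and 1.23 RPKM in mimic NC libraries 1 and 2, and 0.149 and 0.788 RPKM in miR-217 mimic libraries 1 and 2, from 26 to 250 reads. The ratios were 11.8 (6.63 to 22.7) and 5.29 (3.02 to 9.72). Within number 2, ADM2 in miR-217 mimic was 0.639 (0.456 to 0.884) of its level in mimic NC, and within number 1 it was 1.42 (0.649 to 3.18) of it. The ratio of the number ratios, miR-217 mimic over mimic NC, was 0.450 (0.204 to 0.990) for ADM2, 1.37 (0.706 to 2.68) for INHBE, 1.03 (0.935 to 1.13) for STC2 and 0.965 (0.721 to 1.29) for GDF15. For STC1, described below, it was 0.376 (0.121 to 1.17). With 1 library in each cell of this comparison there is no replicate check of it.

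The added 1 of the log2(RPKM + 1) scale makes differences of low genes look smaller. On it, the differences between the numbers were 0.75 in mimic NC and 0.88 in miR-217 mimic for INHBE, and 1.02 and 0.64 for ADM2.

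STC1 had the reverse order of libraries, with the lower values in number 2. This member, on human chromosome 8 (GRCh38 chr8:23841915-23854807, minus strand, 4149 exon bases), measured 0.483 and 0.280 RPKM in mimic NC libraries 1 and 2, and 0.271 and 0.0591 RPKM in miR-217 mimic libraries 1 and 2. The reads behind these values were 116, 55, 60 and 8. The library numbered 2 was the lower one in each group, and the miR-217 mimic library was the lower one within each number. The ratio of number 2 over number 1 was 0.580 (0.347 to 0.913) in mimic NC and 0.218 (0.0558 to 0.619) in miR-217 mimic. The ratio of STC2 to STC1, per length, was 12.7 and 187 in mimic NC libraries 1 and 2, and 21.9 and 886 in miR-217 mimic libraries 1 and 2.

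Both miR-217 mimic libraries lay below both mimic NC libraries for STC1, although miR-217 mimic library 1 (0.271 RPKM) and mimic NC library 2 (0.280 RPKM) were close. The ratio of miR-217 mimic over mimic NC was 0.562 (0.349 to 0.887) within number 1 and 0.211 (0.0547 to 0.617) within number 2, with group means of 0.165 ± 0.150 RPKM and 0.381 ± 0.143 RPKM (SD, n = 2 each). Below a mean of 1 RPKM, STC1 was not among the 13871 genes fitted on log2(RPKM + 1). In a fit on the recovered reads of 15424 genes with at least 50 reads on average, added after the data were seen, its log2 fold change was -1.52 with a standard error of 0.70 and a p of 0.0773 (limma voom, Benjamini-Hochberg adjusted p = 1.00). That fit has no term for the replicate number, so its standard error includes the difference between the numbers. STC1 passed that filter through the mimic NC libraries, where it is higher, so this p is not independent of the filter. The lowest value, in miR-217 mimic library 2, rests on 8 reads in the shallowest library.

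FGF21 (GRCh38 chr19:48755559-48758330, plus strand) had 2 reads in mimic NC library 2, or 0.0322 RPKM, and 0 reads in the other 3 libraries. A count of 0 read pairs allows up to 3 pairs (6 reads), which for this gene of 1312 exon bases is 0.0789 RPKM in mimic NC library 1, 0.0857 RPKM in miR-217 mimic library 1 and 0.140 RPKM in miR-217 mimic library 2. No difference of FGF21 was detectable at this depth.

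**Figure D2:**
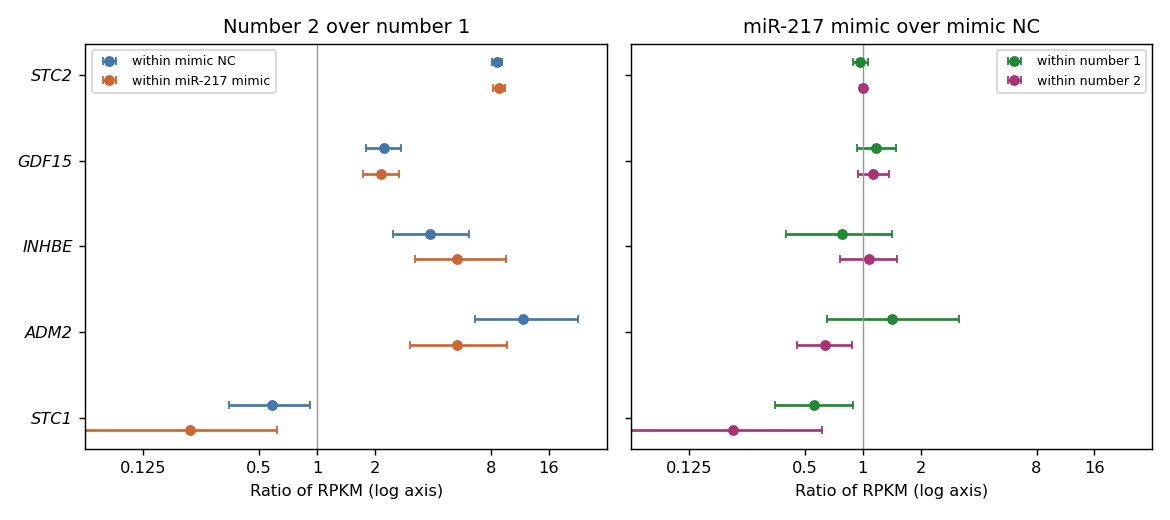
RPKM ratios of the 5 members with reads in every library, on log axes, with 95% counting intervals as bars: number 2 over number 1 in each group, and miR-217 mimic over mimic NC within each number. STC2, ADM2, INHBE and GDF15 lie above 1 between the numbers in both groups and STC1 below 1, from 0.218 to 11.8 in all.

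Read against all genes, an RPKM ratio of at least 2 between the numbers in both groups was met by 103 of 15424 genes with at least 50 reads on average (0.668%), among them 4 of the 5 members in that set, STC2, GDF15, ADM2 and INHBE. A ratio of at most 0.5 in both groups was met by 161 genes (1.04%) and by 0 of these 5. A difference of at least 1 on the log2(RPKM + 1) scale in both groups was met by 56 of 13871 genes (0.404%) and by STC2 of the 2 members in that set. Nothing is read from these counts, since the members had been chosen with these differences in view, and ADM2 and INHBE reached 50 reads on average through the libraries where they are high. The median ratio of the 5 members was 3.87 in mimic NC and 5.29 in miR-217 mimic, against 0.970 and 0.968 over the 15424 genes. Among these genes the ratios ranked 6 and 4 for STC2, 20 and 7 for INHBE, and 114 and 200 for GDF15 in mimic NC and miR-217 mimic, and STC1 ranked 544 and 42 from the lowest.

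Summed over the 6 members, the level was 9.39 and 60.5 RPKM in mimic NC libraries 1 and 2, and 9.41 and 60.5 RPKM in miR-217 mimic libraries 1 and 2. STC2 made up 65.1% and 63.2% of this sum in the libraries numbered 1 and 86.7% and 86.5% in those numbered 2. Per length, the order of the members in both libraries numbered 1 was STC2, GDF15, STC1, INHBE, ADM2 and FGF21. In the libraries numbered 2, STC1 stood below INHBE and ADM2, whose own order differed between the groups.

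The genes whose profile over the 4 libraries lay nearest to that of STC2, by distance of centred log2(RPKM + 1) values among 13870 other genes, were ASNS (distance 0.830), NUPR1 (0.920), DDIT3 (0.983), CHAC1 (1.07) and PSAT1 (1.17). ASNS, asparagine synthetase, measured 2.56 and 15.5 RPKM in mimic NC libraries 1 and 2, and 3.35 and 17.1 RPKM in miR-217 mimic libraries 1 and 2. For GDF15 they were AREG, an EGF receptor ligand (0.0788), ZNHIT6 (0.0831), ZC3H8 (0.0831), IL18 (0.0880) and RND3 (0.0891). This distance grows with the size of the difference between the numbers, which was largest for STC2. The distances of STC2 and GDF15 can thus not be compared as a measure of likeness. With 4 libraries, likeness to either gene mostly restates the difference between the numbers.

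**Figure D3:**
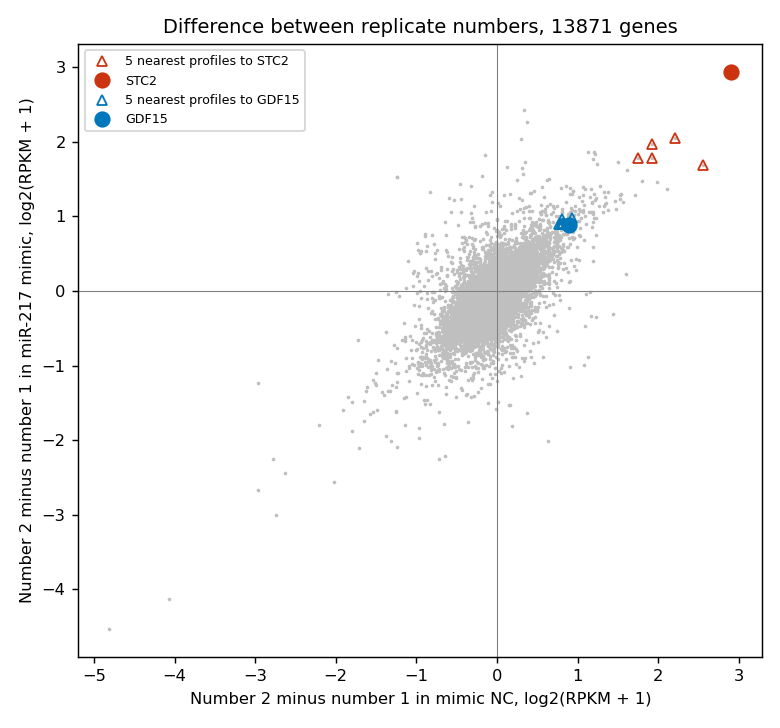
Difference of log2(RPKM + 1) between libraries 2 and 1 in mimic NC (horizontal axis) and in miR-217 mimic (vertical axis) for 13871 genes (grey), with STC2, GDF15 and the 5 genes of nearest profile to each in colour. STC2 is the highest of all genes on both axes, at 2.91 and 2.94, and GDF15 lies at 0.90 and 0.88.

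ATF4 itself, the regulator at the head of this response, measured 54.4 and 123 RPKM in mimic NC libraries 1 and 2, and 57.4 and 121 RPKM in miR-217 mimic libraries 1 and 2. DDIT3 (CHOP), a transcription factor downstream of ATF4, measured 7.40 and 30.8 RPKM in mimic NC and 6.87 and 29.8 RPKM in miR-217 mimic. Both were high in the libraries numbered 2. ATF3, another stress-induced factor of this family, lay between 4.05 and 4.39 RPKM in all 4 libraries and did not share that order. NUPR1, a stress-induced chromatin protein, measured 1.53 and 13.9 RPKM in mimic NC and 2.33 and 9.73 RPKM in miR-217 mimic. EGR1, an immediate-early factor induced by growth signals, measured 20.3 and 0.269 RPKM in mimic NC and 20.6 and 0.234 RPKM in miR-217 mimic, so that it was low in the libraries numbered 2.

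Of 19 listed stress response regulators, all with at least 50 reads on average, 5 had a ratio of number 2 over number 1 of at least 2 in both groups (ATF4, DDIT3, CEBPG, NUPR1 and TRIB3) and 1 had a ratio of at most 0.5 (EGR1). The median ratio of this list was 1.13 in mimic NC and 1.14 in miR-217 mimic. Of 18 other ATF4 targets with at least 50 reads on average, 11 had a ratio of at least 2 in both groups and 0 a ratio of at most 0.5, with median ratios of 2.68 and 2.53. CHAC1, which breaks down glutathione, measured 0.369 and 4.19 RPKM in mimic NC and 0.428 and 3.93 RPKM in miR-217 mimic, and PSAT1, an enzyme of serine synthesis, 21.8 and 75.7 RPKM and 23.5 and 83.1 RPKM. These lists were written with such differences known, so the counts are a description. At an unadjusted p under 0.05 for the mimic, 0 genes of either list passed (limma).

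**Figure D4:**
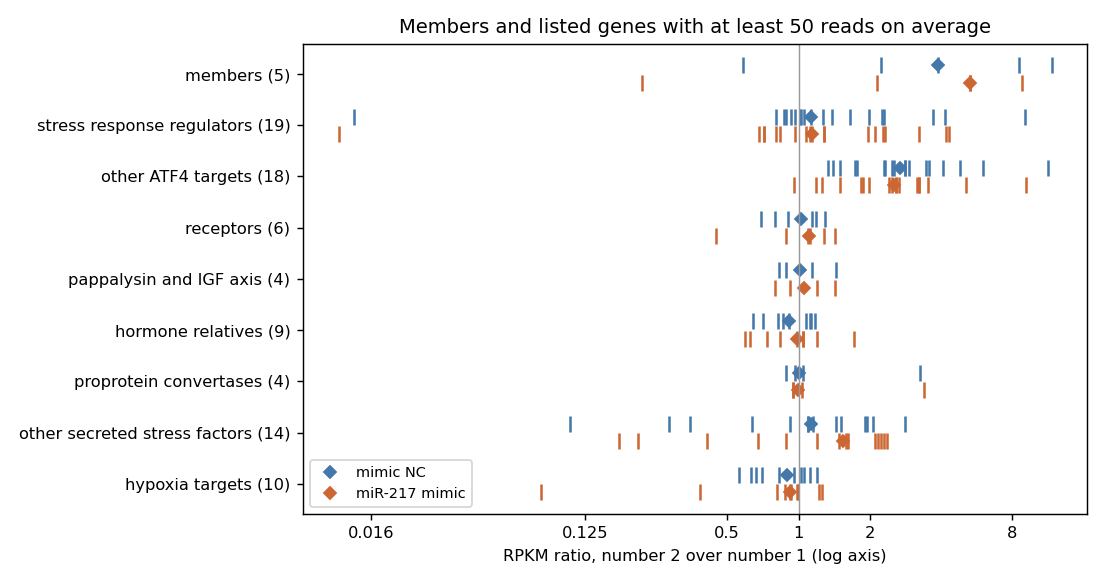
RPKM ratio of number 2 over number 1 (log axis) for the members and for the 8 lists of pathway and context genes (cell type markers not drawn), genes with at least 50 reads on average, in mimic NC and miR-217 mimic, with ticks for genes and diamonds for medians. The members and the other ATF4 targets have medians between 2.53 and 5.29, and the medians of the other lists drawn lie between 0.895 and 1.54. Members and lists were chosen with earlier results of these data known, and ADM2 and INHBE reached 50 reads through the libraries where they are high. The medians are thus a description.

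Across all 13871 genes with a mean of at least 1 RPKM, 0 genes (0%) passed a Benjamini-Hochberg adjusted p under 0.05 for miR-217 mimic against mimic NC (limma), and 165 (1.19%) had an unadjusted p under 0.05. Of the 2 members in this fit, STC2 and GDF15, 0 were among them. In the added fit on reads, 0 of 5 members were among the 78 of 15424 genes (0.506%) with an unadjusted p under 0.05. The 2 groups did not overlap for 1348 genes that were higher with miR-217 mimic (9.72%) and for 1873 that were lower (13.5%), and STC2 and GDF15 belonged to neither. Over genes with at least 50 reads on average these shares were 9.77% above, with 0 of 5 members, and 13.2% below, with STC1 as 1 of 5 members. The smallest p that exact permutation allows for 1 gene in this design is 0.333, so no such test was run.

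STC1 was set beside 11 other genes known to be raised in low oxygen. This list was written with earlier results of these data known, so the counts, medians and p-values below are a description. Of the 10 with at least 50 reads on average, 8 were lower with miR-217 mimic and did not overlap between the groups, beside the 13.2% of all genes given above, and among the 7 in the fit on log2(RPKM + 1) this held for 6, beside 13.5%. The median log2 difference between the groups over these 7 was -0.30, against -0.02 over all 13871 genes. NDRG1, a hypoxia-induced growth regulator, measured 16.9 and 9.42 RPKM in mimic NC libraries 1 and 2, and 8.43 and 3.23 RPKM in miR-217 mimic libraries 1 and 2. In the fit on log2(RPKM + 1), 1 of the 7 genes had an unadjusted p under 0.05, SLC2A1, which encodes the glucose transporter GLUT1. Its log2 fold change was -0.44 with a standard error of 0.14 (limma, unadjusted p = 0.0251, Benjamini-Hochberg adjusted p = 1.00). In the added fit on reads, 5 of the 10 had an unadjusted p under 0.05, with 0.0180 for CA9, 0.0208 for SLC2A1, 0.0245 for PDK1, 0.0472 for KDM3A and 0.0485 for NDRG1 (limma voom, Benjamini-Hochberg adjusted p = 1.00 for each). In these 2 fits, which have no replicate term, 0 genes of the list passed the adjusted test. In a fit on reads with a replicate block, also added after the data were seen, NDRG1 passed it, as given in the closing section.

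CA9, a carbonic anhydrase that is a classic hypoxia marker and is named here after its values were seen, had the same order of libraries as STC1, with 1.55 and 0.973 RPKM in mimic NC libraries 1 and 2, and 0.449 and 0.0367 RPKM in miR-217 mimic libraries 1 and 2. The last of these rests on 2 reads, and its ratio within number 2 was 0.0377 (0.000943 to 0.226). CA9 had 40 and 2 reads in miR-217 mimic libraries 1 and 2. It passed the filter of 50 reads through the mimic NC libraries, where it is higher, so its p above is not independent of the filter. HIF1A, which encodes the oxygen-regulated factor itself, measured 28.0 and 31.8 RPKM in mimic NC and 24.6 and 31.5 RPKM in miR-217 mimic, and here the groups overlapped. Between the numbers, 0 of the 10 genes had a ratio of at least 2 or at most 0.5 in both groups.

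**Figure D5:**
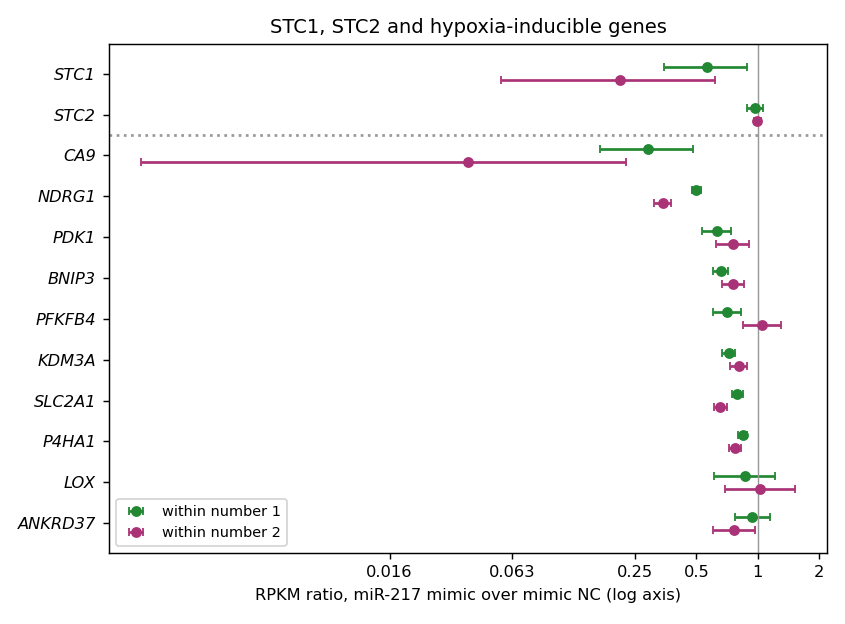
RPKM ratio of miR-217 mimic over mimic NC within number 1 and within number 2 (log axis, 95% counting intervals as bars) for STC1, STC2 and the listed hypoxia targets with at least 50 reads on average. STC1 lies at 0.562 and 0.211, SLC2A1 at 0.794 and 0.657, and CA9 within number 2 at 0.0377.

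The receptors through which these hormones act differed widely in level. GFRAL, the receptor of GDF15, was not in the table, and RET, its signalling partner, was at most 0.0414 RPKM. KLB (beta-Klotho), the co-receptor of FGF21, was at most 0.0397 RPKM, whereas FGFR1 lay between 1.67 and 2.18 RPKM, FGFR3 between 3.16 and 4.17 RPKM and FGFR4 between 1.24 and 2.79 RPKM. For ADM2, CALCRL was at most 0.0183 RPKM, and RAMP1, RAMP2 and RAMP3, the proteins that give it its specificity, were not in the table. Of the activin receptors, ACVR1B lay between 1.91 and 2.42 RPKM, ACVR2A between 0.341 and 0.484 RPKM and ACVR2B between 0.254 and 0.329 RPKM, and ACVR1C was at most 0.00666 RPKM. Of the 6 receptors with at least 50 reads on average, 0 had a ratio of at least 2 or at most 0.5 between the numbers in both groups.

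The proteases that stanniocalcins inhibit were low. PAPPA measured 0.139 and 0.199 RPKM in mimic NC libraries 1 and 2, and 0.204 and 0.291 RPKM in miR-217 mimic libraries 1 and 2. PAPPA2 had reads in mimic NC library 2 alone, 4 in number. IGFBP4, a substrate of PAPPA, lay between 11.4 and 13.6 RPKM, IGFBP3, a carrier of insulin-like growth factors that PAPPA2 is known to cleave, between 72.2 and 108 RPKM, and the receptor IGF1R between 1.78 and 2.27 RPKM, and none of the 4 genes of this list with at least 50 reads on average differed by a ratio of 2 between the numbers in both groups.

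Relatives of the members are given for comparison. ADM, adrenomedullin, the relative of ADM2, was lower in the libraries numbered 2, with 9.60 and 6.17 RPKM in mimic NC libraries 1 and 2, and 9.50 and 5.91 RPKM in miR-217 mimic libraries 1 and 2. INHBB, another activin chain, lay between 18.8 and 20.9 RPKM in all 4 libraries, well above INHBE per length. Of 9 hormone relatives with at least 50 reads on average, 0 had a ratio of at least 2 or at most 0.5 in both groups, with median ratios of 0.910 and 0.990. FURIN, a convertase that cleaves precursors of the TGF-beta family, lay between 9.10 and 10.6 RPKM, and of 4 convertases in this set only PCSK1, named after its values were seen, had a ratio of at least 2 in both groups (3.25 and 3.40).

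Among 14 other secreted stress factors, 2 had a ratio of at least 2 in both groups (IL6 and ANGPTL4, named after their values were seen) and 3 a ratio of at most 0.5. The latter were CTGF and CYR61, matricellular proteins, and EDN1, endothelin 1. CTGF measured 22.5 and 2.44 RPKM in mimic NC libraries 1 and 2, and 22.9 and 4.01 RPKM in miR-217 mimic libraries 1 and 2. EDN1 measured 33.0 and 9.37 RPKM in mimic NC and 32.6 and 6.83 RPKM in miR-217 mimic. The listed factors that met a threshold thus lay in both directions between the numbers, and the rest of the 14 met neither. Over the 15424 genes, 0.668% had a ratio of at least 2 in both groups and 1.04% a ratio of at most 0.5. This list was written with earlier results of these data known, so the counts are a description. At an unadjusted p under 0.05 for the mimic 0 genes of the receptor, pappalysin, relative, convertase and other secreted lists passed (limma).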

How the data were processed

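The authors deposited 1 table of RPKM values with exon coordinates and exon length for 32955 genes, whose columns were matched to samples by name (0 columns of other samples). The submitters' processing notes name Trimmomatic 0.36, Subread 1.5.1 with featureCounts, edgeR 3.12.1 and the build hg38, and the aligner and annotation are not given in the sources used here. Multiplied by exon length, 100% of values above 0 came out as whole reads (tolerance 0.001), and these reads were used where named. Values were compared as log2(RPKM + 1) with limma 3.58.1 in R 4.3.3 (trended variance, no replicate term, two-sided, Benjamini-Hochberg adjustment) over the 13871 genes with a mean of at least 1 RPKM. Ratios have exact 95% counting intervals, and ratios of ratios have log-normal ones (scipy 1.17.1, Python 3.11.15). The fit on reads (voom, at least 50 reads on average), the ratio thresholds of 2 and 0.5 and the halving of counts for intervals were added after the data were seen. The members and gene lists were chosen with earlier results of these data known. Genes named are the members, the 5 nearest profiles of STC2 and GDF15, up to 3 genes of each list with the largest difference between the numbers, genes of a list with an unadjusted p under 0.05, receptors, pappalysins and ATF4, DDIT3 and ATF3, and others with a function given beside their values, which were picked after those values were seen. The fits without a replicate term were run on simulated data in which libraries numbered 1 and 2 did not differ. The libraries here did differ by number, so that run does not show how these fits behave on them. Figures were drawn with matplotlib 3.10.9.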

Additional observations from a re-analysis of the deposited data

Results flagged for a closer look

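For 2 members the difference between the groups, on the log2(RPKM + 1) scale, had opposite signs within number 1 and within number 2. ADM2 was 0.056 higher in miR-217 mimic than in mimic NC within number 1, and its difference within number 2 was -0.32. INHBE had a difference of -0.075 within number 1 and of 0.060 within number 2. With 1 library of each group per number, these differences were not tested against the spread between replicates. Only for ADM2 did the counting interval of the ratio of ratios (0.204 to 0.990) leave out 1, and its upper limit lay close to 1. The ratio of ratios of STC1 was lower still, at 0.376, with an interval that included 1 (0.121 to 1.17). ADM2 is thus not set apart by this measure.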

How the results depend on the processing

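No member passed an adjusted p under 0.05 in any fit tried. The sign of the STC2 difference between the groups depended on the scaling, 0.0077 with each library centred on its median against -0.02. Leaving out 1 library at a time gave -1.49 to 1.45 for STC2 and -0.29 to 0.61 for GDF15. Both genes were below 0 without mimic NC replicate 1 or miR-217 mimic replicate 2, and above 0 without either of the other 2. The lone library was then assumed to vary like the other group. With 1 library left out, the groups no longer hold the same numbers. These values therefore carry the difference between the numbers and do not show how a difference by mimic varies. Within each number, the STC2 ratios of miR-217 mimic over mimic NC were 0.973 and 0.998. For STC1, -0.25 on the log2(RPKM + 1) scale, the fits on reads gave -1.52 and, with the replicate block, -1.32 (standard error 0.36, limma voom, unadjusted p = 0.00462 against 0.0773, adjusted p = 0.370), both on a log2 scale with no added 1.

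Genes at an unadjusted p under 0.05 numbered 165, against 877 with no filter, 48 at a mean of at least 5 RPKM, 82 in the fit on reads, 78 at 50 reads, 1046 with the replicate block, 1404 with the block on reads at 50 reads and 93 to 866 without 1 library (866 without miR-217 mimic replicate 1, 93 without mimic NC replicate 2). Of the 165, 40.6% were higher in miR-217 mimic, and of the 176 with centring 55.1%. An adjusted p under 0.05 was reached by 0 genes, except 1 (NDRG1, of the hypoxia list) with the block on reads at 50 reads, and by 0 without 1 library. Samples of 1 number shared only the number in the labels, and their deviations from the group means correlated at 0.680 across 13871 genes, which are not independent. With the block the fitted difference was -0.02 for STC2 (standard error 0.066, limma, adjusted p = 0.938) and 0.16 for GDF15 (standard error 0.077, limma, adjusted p = 0.634). No member passed an adjusted p under 0.05 with it. STC1 passed an unadjusted 0.05 with the block on reads, as did 1404 of 15424 genes. It had entered that set through the mimic NC libraries, where it is higher, so its p is not independent of the filter.

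Between the numbers, a pseudocount of 0.1 gave log2 differences of 3.10 for STC2, 1.10 for GDF15, 2.27 for ADM2, 1.84 for INHBE, -0.92 for STC1 and 0.20 for FGF21. Plain RPKM gave 3.12, 1.13, 2.98, 2.18 and -1.49 for the first 5 of these, and centring gave 2.95 for STC2 and 0.92 for GDF15. Without 1 library the ranges were 2.91 to 2.94 for STC2, 0.80 to 0.97 for GDF15, 0.67 to 0.99 for ADM2, 0.78 to 0.85 for INHBE, -0.37 (without mimic NC replicate 2) to -0.10 (without miR-217 mimic replicate 2) for STC1 and 0 to 0.05 for FGF21. Depth limited STC1 in miR-217 mimic library 2 (8 reads) and FGF21 in every library.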

Other observations

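PTPRC, a marker of blood cells that is not a member, measured 0.351 and 0.414 RPKM in mimic NC libraries 1 and 2, and 0.504 and 1.25 RPKM in miR-217 mimic libraries 1 and 2, the reverse of the order of STC1. The reads behind these values were 170, 164, 225 and 341. VEGFA, a secreted factor known as a target of both low oxygen and ATF4, measured 12.9 and 24.7 RPKM in mimic NC libraries 1 and 2, and 9.57 and 20.7 RPKM in miR-217 mimic libraries 1 and 2, so that it was higher in the libraries numbered 2, as STC2 was, and lower with miR-217 mimic within each number, as STC1 was. EPAS1, which encodes the second oxygen-regulated factor, measured 9.70 and 19.3 RPKM in mimic NC and 9.39 and 21.4 RPKM in miR-217 mimic. These 3 genes were picked after their values were seen.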
